A study of Mus musculus with 12 samples.

Results

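The collagen chains are the protein-coding genes of the deposited table whose symbol is Col, a type number, the letter a and a chain number, such as Col4a3 for the α3 chain of type IV collagen. The rule found 44 genes among the 17579 in the table, which are all 44 such genes of the GENCODE M21 mouse annotation, and they encode 27 collagen types. They comprise 11 fibrillar chains, 9 fibril-associated chains with interrupted triple helices (FACIT), 6 type IV chains of basement membrane networks, 6 type VI chains of beaded filaments, 4 transmembrane chains and 8 chains of smaller classes. Each of the 44 had at least 38 counts over the 12 libraries, and all 44 were tested in every comparison.

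RNA was sequenced from retina and striatum of R6/1 mice and of their wt littermates, all male, 13 to 15 weeks old and on the C57Bl/6 background of substrain J, without treatment. The R6/1 transgene is exon 1 of the human huntingtin gene with a long CAG tract, driven by sequence of that gene's own promoter, and is 1 transgenic line used as a model of Huntington's disease, while wt mice lack the transgene. The groups were R6/1 retina, wt retina, R6/1 striatum and wt striatum, with 3 libraries each, and each library was a pool of RNA from 3 to 4 mice, numbered by the replicate number of its label. Every SD and p-value therefore describes the spread between pools and not between mice. Retina and striatum were taken from the same mice in both genotypes, and the main fits took the pools of both tissues as independent.

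Collagens are proteins of 3 chains wound into a triple helix, and each class builds a different structure outside the cell. Type IV chains form the sheet-like network of basement membranes, which in the eye include the inner limiting membrane, the vessel walls and Bruch's membrane. Fibrillar chains build the fibrils of connective tissue and of the vitreous, FACIT chains sit on the surface of such fibrils, and transmembrane chains remain anchored in the cell that makes them. In the central nervous system collagens come mainly from vessels, meninges and glia, but neurons make several of the minor types.

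Total counts were 17024353 to 17926885 in R6/1 retina, 14070445 to 18661772 in wt retina, 15885261 to 22432431 in R6/1 striatum and 17206379 to 20159277 in wt striatum. The markers of rods and cones marked the retina libraries: 7 of 7 rod markers and 6 of 6 cone markers stood above their wt striatum level in wt retina. They were also lower in R6/1 retina, where the rod markers summed to 16060 to 23370 CPM (counts scaled to library size with TMM factors) against 54370 to 62670 CPM in wt retina. Single pools stood apart in markers of other tissues. Lens markers summed to 647.5 CPM in R6/1 retina pool 3 and to 56.5 CPM in wt retina pool 2, against 2.78 to 8.37 CPM in the other 4 retina pools. Fibroblast markers summed to 22.2 CPM in R6/1 retina pool 2 and to 2.88 to 11.6 CPM in the other 5, and choroid plexus markers to 153.7 CPM in R6/1 striatum pool 3 and to 18.2 to 33.3 CPM in the other 5 striatum pools. Markers of medium spiny neurons summed to 802.4 to 1548 CPM in R6/1 striatum, against 2700 to 3666 CPM in wt striatum.

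In the retina, the collagen chains that changed with genotype were all lower in R6/1. Of the 44 chains, 16 fell (36.4%) and 0 rose at an adjusted p under 0.05 by edgeR's quasi-likelihood test, while 12.7% of all 16582 genes tested fell and 9.58% rose. At an unadjusted p under 0.05 1 chain, Col8a1, was higher, and DESeq2 called 15 chains lower and 0 higher. The log2 fold change had a median of -0.31 over the 44 chains and of 0.01 over all genes. Fallen chains came from 6 classes: 5 of 11 fibrillar chains, 4 of 9 FACIT chains, 2 of 6 type IV chains, 2 of 6 type VI chains, 2 of 4 transmembrane chains and the only anchoring fibril chain. Among them 7 were at least 2-fold lower. The 44 chains together summed to 384.9, 432.5 and 457.2 CPM in the R6/1 retinas, against 638.2, 641.6 and 631.3 CPM in the wt retinas. In bulk tissue, fewer cells that make a chain and less of its RNA per cell cannot be told apart. Rod, cone, bipolar and ganglion cell markers were lower in the same R6/1 libraries (7 of 7, 6 of 6, 5 of 5 and 4 of 4 fell), and the part of these cells in the collagen values was not tested. Endothelial markers, of a cell type that makes basement membrane collagen, summed to 266.5 to 321.4 CPM in R6/1 retina and to 295.2 to 341.7 CPM in wt retina. Of these 1 of 7 fell, Flt1, with means of 75.9 CPM in R6/1 retina and 93.5 CPM in wt retina (log2 fold change -0.27, edgeR adjusted p = 0.00641). Most of the endothelial sum was Kdr, with means of 188.3 CPM in R6/1 retina and 183.2 CPM in wt retina. Pericyte and smooth muscle markers, of the other vessel cells, summed to 180.5 to 193.6 CPM in R6/1 retina and to 144.9 to 168.7 CPM in wt retina, and 2 of 7 rose (Rgs5 and Acta2) while 0 fell. Müller glia markers summed to 2992 to 3319 CPM in R6/1 retina and to 3676 to 4053 CPM in wt retina, with 1 of 6 lower and 1 higher. Astrocyte markers summed to 610.6 to 720.5 CPM in R6/1 retina and to 661.1 to 689.1 CPM in wt retina, with 0 of 4 lower and 1 higher. Of 6 markers of retinal pigment epithelium 0 fell and 0 rose. The part of vessel, glial and pigment epithelium cells in the collagen values was not tested.

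**Figure D1:**
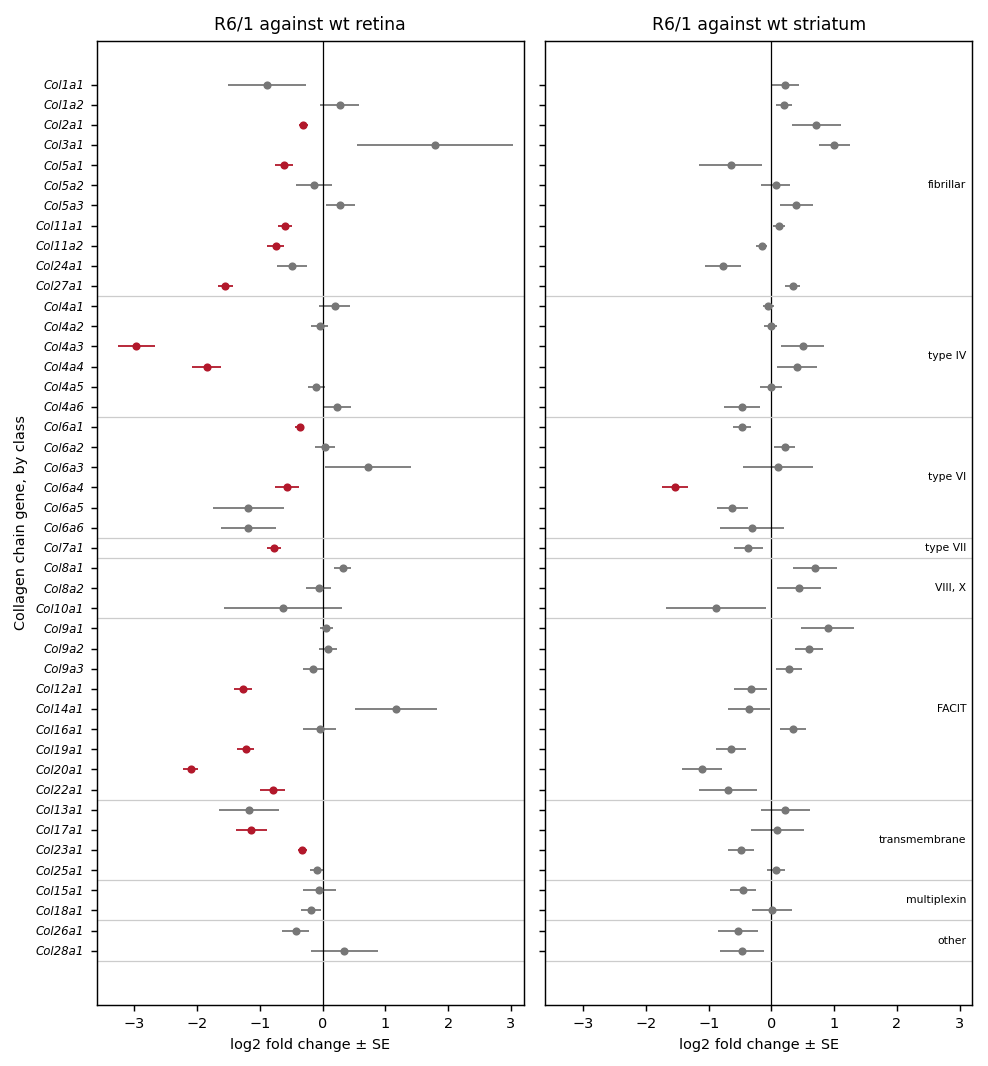
Log2 fold change with its standard error (x axis) of each of the 44 collagen chains (rows, by class), in R6/1 against wt retina on the left and R6/1 against wt striatum on the right. Red points passed an adjusted p under 0.05: 16 chains in the retina, between Col4a3 at -2.96 and Col2a1 at -0.31, and Col6a4 at -1.54 in the striatum.

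The largest fall among the 44 chains was in type IV collagen, of which 2 of 6 chains passed. Col4a3 and Col4a4 encode chains that assemble with that of Col4a5 into the α3α4α5 network of mature basement membranes, which is defective in Alport syndrome. Both genes lie on chromosome 1 of GRCm38, Col4a3 at 82586921 to 82722059 on the plus strand and Col4a4 at 82448423 to 82586849 on the minus strand, and their start sites are 72 bases apart, head to head. Col4a3 had 10.4, 6.89 and 14.9 CPM in the R6/1 retinas, against 81.3, 95.3 and 79.4 CPM in the wt retinas. The highest R6/1 pool was far below the lowest wt pool, and the log2 fold change was -2.96 (SE 0.29, edgeR adjusted p = 0.00336). Col4a4 had 7.58, 6.58 and 10.1 CPM in the R6/1 retinas, against 25.7, 38.3 and 24.9 CPM in the wt retinas. These groups did not overlap either, and the log2 fold change was -1.84 (SE 0.23, edgeR adjusted p = 0.00192).

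The other 4 type IV chains did not pass. Col4a5, the X-linked partner of both, had 14.2, 18.3 and 20.3 CPM in the R6/1 retinas and 21.7, 16.7 and 19.3 CPM in the wt retinas, so the pools overlapped. Col4a1 and Col4a2, whose chains form the network found in nearly all basement membranes, had 27.7 to 50.1 and 20.1 to 30.2 CPM in R6/1 retina, against 30.7 to 37.7 and 22.8 to 28.4 CPM in wt retina. Col4a6 had 2.73 to 3.75 CPM in R6/1 retina and 2.25 to 3.35 CPM in wt retina. The Col4a1 value rested on single pools, since its log2 fold change of 0.19 became 0.39 without R6/1 retina pool 1 (edgeR adjusted p = 0.0366) and -0.02 without R6/1 retina pool 3, the pool with the high lens markers.

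**Figure D2:**
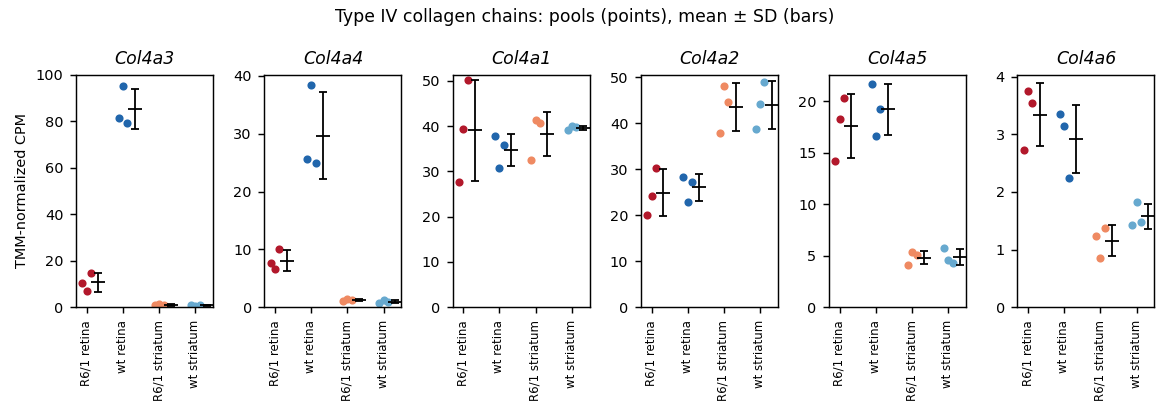
TMM-normalized CPM (y axis, from 0, with a scale of its own in each panel) of the 6 type IV chains in R6/1 retina, wt retina, R6/1 striatum and wt striatum. Points are pools and bars are mean ± SD of 3 pools: Col4a3 stood at 6.89 to 14.9 CPM in R6/1 retina and 79.4 to 95.3 CPM in wt retina, while the pools of Col4a1, Col4a2, Col4a5 and Col4a6 overlapped between the genotypes in the retina.

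All 6 type IV genes lie in head-to-head pairs, so the chain pair that fell can be set beside a pair that did not pass. The RefSeq promoter windows of GRCm38.p6, 250 bases before and 50 after a start site, are shown 5′ to 3′ for Col4a4 (chr1:82586800-82587099, minus strand), which also holds the start of Col4a3, and for Col4a1 (chr8:11312777-11313076, minus strand), which also holds the start of Col4a2. Capitals mark the stretch from one GENCODE start site to the other, 73 bases in the first window and 22 bases in the second.
Col4a4 and Col4a3: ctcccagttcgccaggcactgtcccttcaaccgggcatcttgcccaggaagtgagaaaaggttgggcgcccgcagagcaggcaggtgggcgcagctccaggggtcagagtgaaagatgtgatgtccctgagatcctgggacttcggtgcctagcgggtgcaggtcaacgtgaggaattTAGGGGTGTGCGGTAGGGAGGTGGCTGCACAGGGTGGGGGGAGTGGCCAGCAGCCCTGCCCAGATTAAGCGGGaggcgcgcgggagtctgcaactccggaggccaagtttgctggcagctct
Col4a1 and Col4a2: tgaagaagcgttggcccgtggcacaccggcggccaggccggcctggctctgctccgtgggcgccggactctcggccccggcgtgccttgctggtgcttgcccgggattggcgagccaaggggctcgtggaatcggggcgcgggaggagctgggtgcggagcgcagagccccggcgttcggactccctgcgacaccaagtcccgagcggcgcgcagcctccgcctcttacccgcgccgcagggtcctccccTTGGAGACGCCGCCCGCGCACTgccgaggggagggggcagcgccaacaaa
The Col4a4 window had a GC content of 63.3% and 14 CpG dinucleotides, and the Col4a1 window 74.0% and 37, beside a median GC content of 52.7% over all 32851 windows. The third pair, Col4a5 and Col4a6, has its start sites 1309 bases apart on the X chromosome.

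Among the fibrillar chains, Col27a1 fell furthest. It encodes a minor fibrillar collagen best known from cartilage and lies on chromosome 4 at 63214004 to 63334991. Col27a1 had 8.73, 6.74 and 8.09 CPM in the R6/1 retinas, against 26.0, 22.8 and 21.6 CPM in the wt retinas, which leaves a wide gap between the groups. The log2 fold change was -1.55 (SE 0.12, edgeR adjusted p = 7.36e-08). The chains of types XI and V, which start fibrils of types II and I and set their diameter, fell by less. Col11a1 had 9.60, 10.4 and 11.4 CPM in the R6/1 retinas, against 17.5, 14.8 and 16.2 CPM in the wt retinas (log2 fold change -0.60, SE 0.11, edgeR adjusted p = 0.000751). Col11a2 had 6.77, 8.80 and 7.92 CPM in the R6/1 retinas, against 15.0, 11.3 and 13.98 CPM in the wt retinas (log2 fold change -0.75, SE 0.13, edgeR adjusted p = 0.000599). Col5a1 had 5.40, 7.77 and 7.20 CPM in the R6/1 retinas, against 10.7, 11.2 and 9.88 CPM in the wt retinas (log2 fold change -0.61, SE 0.14, edgeR adjusted p = 0.00511). All 3 genes were lower in every R6/1 pool than in any wt pool. Col2a1, the main collagen of cartilage and vitreous, showed the smallest fall of the 16, with 30.2, 31.3 and 31.8 CPM in the R6/1 retinas and 37.7, 39.6 and 40.6 CPM in the wt retinas (log2 fold change -0.31, SE 0.07, edgeR adjusted p = 0.00315). The groups did not overlap, and pools of the same genotype lay close together. In a single fit of all 12 libraries the calls for Col2a1 (edgeR adjusted p = 0.257) and Col5a1 (edgeR adjusted p = 0.32) were lost, and both were also lost by DESeq2 with the replicate number as a block (adjusted p = 0.107 and 0.0868).

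The classical connective tissue chains of types I and III did not pass, and single pools were high for them in both genotypes. Col3a1 had 0.818, 8.64 and 1.33 CPM in the R6/1 retinas, against 0.469, 0.658 and 1.96 CPM in the wt retinas. Col1a1 had 0.327, 1.75 and 0.554 CPM in R6/1 retinas, against 0.937, 1.46 and 2.58 CPM in wt retinas, and Col1a2 had 1.75, 4.37 and 2.60 CPM in R6/1 retinas, against 1.81, 2.63 and 2.92 CPM in wt retinas. R6/1 retina pool 2 was the highest R6/1 pool and wt retina pool 3 the highest wt pool for all 3 genes and for the fibroblast markers, whose sum was 3.11, 22.2 and 2.88 CPM in the R6/1 retinas and 3.68, 5.93 and 11.6 CPM in the wt retinas. Of these markers 1 of 6, Slc6a13, fell and 0 rose in the whole comparison, none was at 0 in every retina pool, and their part in the values of types I and III was not tested. Without R6/1 retina pool 2, Col1a1 was lower in R6/1 retina at a log2 fold change of -1.89 (edgeR adjusted p = 0.0073), against -0.89 (edgeR adjusted p = 0.37) with it and -0.40 (edgeR adjusted p = 0.714) without wt retina pool 3. The remaining fibrillar chains, Col5a2, Col5a3 and Col24a1, lay between 1.16 and 5.25 CPM in R6/1 retina and between 1.32 and 3.82 CPM in wt retina and did not pass.

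**Figure D3:**
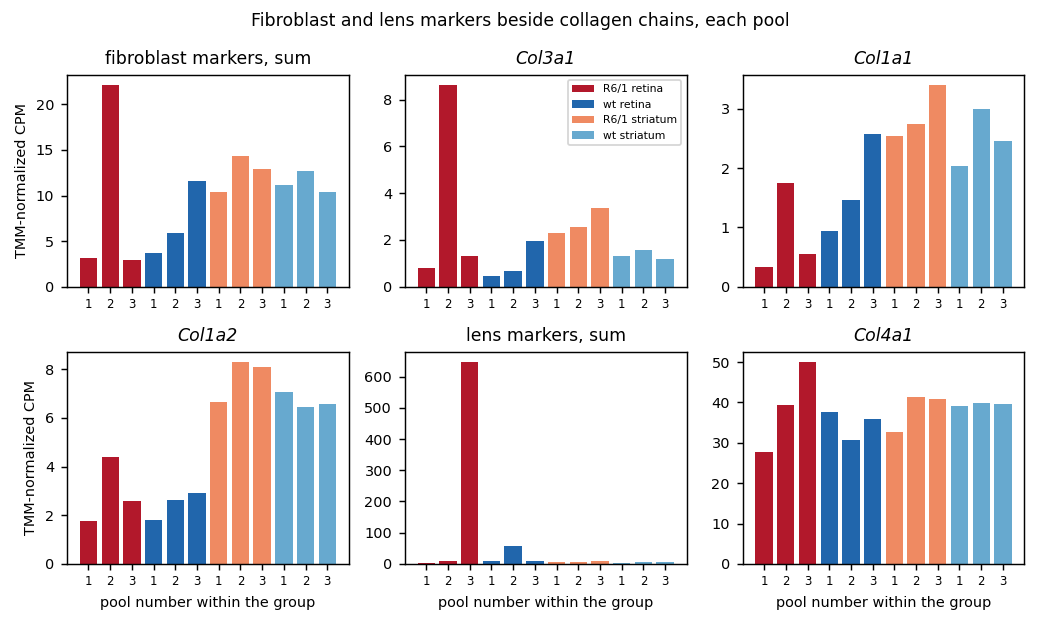
TMM-normalized CPM (y axes, from 0) in each of the 12 pools (x axis, numbered within R6/1 retina, wt retina, R6/1 striatum and wt striatum) of summed fibroblast markers, Col3a1, Col1a1, Col1a2, summed lens markers and Col4a1. R6/1 retina pool 2 is high in fibroblast markers (22.2 CPM) and Col3a1 (8.64 CPM), and R6/1 retina pool 3 in lens markers (647.5 CPM).

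The FACIT chains split into 4 that fell and 5 that did not pass. Col20a1, a FACIT chain described first in chick tissues, is on chromosome 2 at 180986535 to 181018363 and had the smallest p of the 44 chains. Its level was 3.98, 5.30 and 5.10 CPM in the R6/1 retinas, against 21.96, 21.6 and 19.7 CPM in the wt retinas, with tight pools on both sides (log2 fold change -2.10, SE 0.12, edgeR adjusted p = 4.91e-09). Col12a1, which binds type I fibrils in dense connective tissue, had 5.24, 7.10 and 5.87 CPM in the R6/1 retinas, against 13.6, 17.9 and 13.5 CPM in the wt retinas (log2 fold change -1.27, SE 0.14, edgeR adjusted p = 6.93e-06). Col19a1, a collagen that interneurons of the mouse brain make and that takes part in synapse formation, had 6.82, 6.38 and 8.53 CPM in the R6/1 retinas, against 18.3, 14.6 and 18.8 CPM in the wt retinas (log2 fold change -1.22, SE 0.13, edgeR adjusted p = 3.54e-06). Neither gene overlapped between the genotypes. Col22a1, known from tissue junctions such as that of muscle and tendon, had 2.73, 2.21 and 2.49 CPM in the R6/1 retinas, against 4.28, 5.20 and 3.76 CPM in the wt retinas (log2 fold change -0.80, SE 0.20, edgeR adjusted p = 0.00831). The call for Col22a1 was lost without wt retina pool 2 (edgeR adjusted p = 0.0506), in the single fit of 12 libraries (edgeR adjusted p = 0.0594) and by DESeq2 with the block (adjusted p = 0.197). By contrast Col9a1, which coats type II fibrils in cartilage and vitreous, had 48.3, 35.2 and 43.4 CPM in the R6/1 retinas and 43.5, 38.9 and 42.1 CPM in the wt retinas, which overlap. Col9a2 and Col9a3, the other chains of type IX, had 6.59 to 8.29 and 5.76 to 6.71 CPM in R6/1 retina, against 6.09 to 7.80 and 5.84 to 8.71 CPM in wt retina. Col14a1 and Col16a1 lay between 0.218 and 2.16 CPM in R6/1 retina and between 0.134 and 2.53 CPM in wt retina.

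Col17a1 and Col23a1 fell among the transmembrane chains, and so did Col7a1, the anchoring fibril chain. Col17a1, the hemidesmosome protein that ties epithelial cells to the basement membrane of skin, had 1.96, 1.39 and 1.22 CPM in the R6/1 retinas, against 2.88, 3.80 and 3.59 CPM in the wt retinas (log2 fold change -1.13, SE 0.24, edgeR adjusted p = 0.00283). Col7a1, which anchors that basement membrane to the tissue below, had 12.6, 15.5 and 15.7 CPM in the R6/1 retinas, against 27.6, 22.4 and 26.3 CPM in the wt retinas (log2 fold change -0.77, SE 0.11, edgeR adjusted p = 6.02e-05). Both stood lower in every R6/1 pool than in any wt pool. Col23a1, a transmembrane collagen whose ectodomain can be shed, had 46.4, 52.1 and 52.0 CPM in the R6/1 retinas, against 61.4, 65.3 and 65.3 CPM in the wt retinas (log2 fold change -0.32, SE 0.07, edgeR adjusted p = 0.00253). Its groups were also separate, but the log2 fold change was smaller than those of Col17a1 and Col7a1. The call for Col23a1 was lost in the single fit of 12 libraries (edgeR adjusted p = 0.0563) and that for Col17a1 by DESeq2 with the block (adjusted p = 0.0882). Col13a1, known from the neuromuscular junction, had 0.277 to 0.382 CPM in R6/1 retina and 0.561 to 1.17 CPM in wt retina, levels that did not overlap but did not pass. Col25a1, a neuronal collagen found in amyloid plaques, had 15.9 to 17.9 CPM in R6/1 retina and 16.1 to 20.2 CPM in wt retina.

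Type VI collagen forms beaded filaments in the space around cells, and 2 of its 6 chains fell. Col6a1, its α1 chain, had 34.9, 40.0 and 37.7 CPM in the R6/1 retinas, against 51.6, 46.6 and 49.7 CPM in the wt retinas (log2 fold change -0.36, SE 0.07, edgeR adjusted p = 0.0015). Col6a4, an α3-like chain whose human gene is disrupted, had 2.56, 3.19 and 3.66 CPM in the R6/1 retinas, against 5.42, 4.24 and 4.55 CPM in the wt retinas (log2 fold change -0.56, SE 0.19, edgeR adjusted p = 0.0447). The groups of both genes were separate, but the call for Col6a4 was lost when any 1 of 5 of the 6 retina pools was left out, all but R6/1 retina pool 3 (adjusted p up to 0.191), and also under 6 of 10 other settings, among them library totals (edgeR adjusted p = 0.0892), the replicate block (edgeR adjusted p = 0.0653) and DESeq2 (adjusted p = 0.117). Col6a2, whose chain joins that of Col6a1 in the same molecule, had 4.91 to 7.41 CPM in R6/1 retina and 5.85 to 6.90 CPM in wt retina. Col6a3, Col6a5 and Col6a6 lay between 0.109 and 1.24 CPM in R6/1 retina and between 0.201 and 2.08 CPM in wt retina, and Col6a6 passed without R6/1 retina pool 2 (log2 fold change -1.77, edgeR adjusted p = 0.0071, against -1.18 with it).

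**Figure D4:**
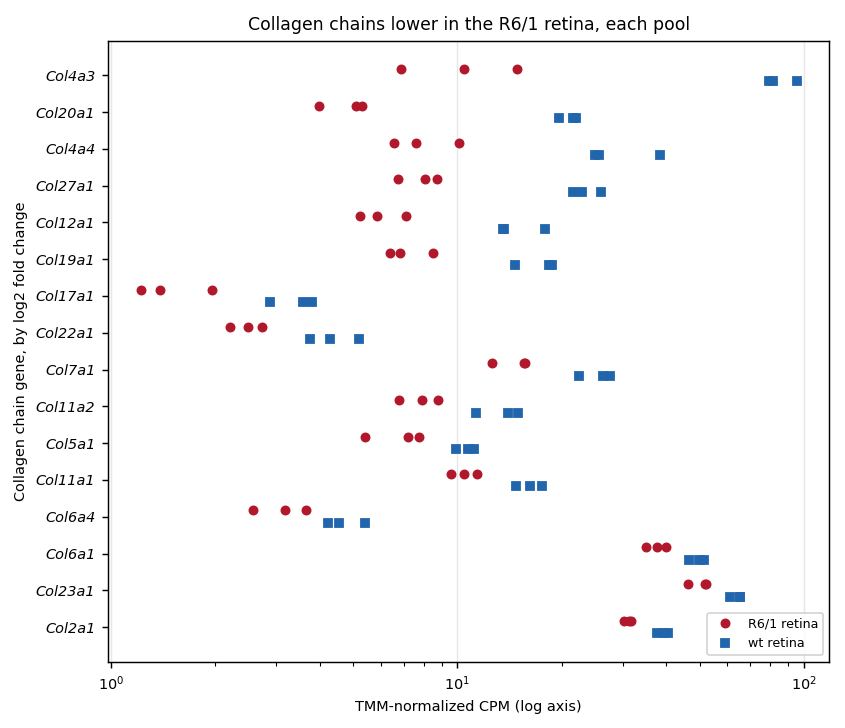
TMM-normalized CPM (x axis, log scale) of the 16 chains that fell in R6/1 retina, ordered by log2 fold change, with R6/1 pools as red circles above wt pools as blue squares. In all 16 rows the R6/1 pools lie left of the wt pools, from a wide gap in Col4a3 (6.89 to 14.9 CPM in R6/1, 79.4 to 95.3 CPM in wt) to a narrow one in Col2a1 (30.2 to 31.8 CPM in R6/1, 37.7 to 40.6 CPM in wt).

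The other 7 chains did not pass in the retina. Col8a1 and Col8a2, chains of the network in the corneal Descemet's membrane, had 10.1 to 12.1 and 3.09 to 3.99 CPM in R6/1 retina, against 8.08 to 11.5 and 3.15 to 4.68 CPM in wt retina. Without wt retina pool 2, Col8a1 passed as higher (log2 fold change 0.49, edgeR adjusted p = 0.0235), as it did with library totals (0.43, edgeR adjusted p = 0.0292). Col18a1, the source of endostatin and the gene of Knobloch syndrome, had 8.95 to 14.04 CPM in R6/1 retina and 11.4 to 15.0 CPM in wt retina, and Col15a1, its relative in vessel walls, 1.72 to 3.19 CPM in R6/1 retina and 2.25 to 2.49 CPM in wt retina. Col10a1, the chain of hypertrophic cartilage, did not exceed 0.268 CPM in any retina pool. Col26a1 and Col28a1 lay between 0.382 and 2.88 CPM in R6/1 retina and between 0.201 and 3.88 CPM in wt retina. Over all 44 chains the groups were separate and lower in R6/1 retina for 19 (43.2%), against 23.0% of all genes, and separate and higher for 0, against 15.3%.

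In the striatum, 1 chain of 44 fell and 0 rose, beside 1.32% of all 16728 genes that fell and 0.132% that rose by edgeR's quasi-likelihood test. Col6a4 had 2.67, 2.11 and 3.35 CPM in the R6/1 striata, against 9.38, 6.97 and 7.18 CPM in the wt striata. The groups were far apart, with a log2 fold change of -1.54 (SE 0.21, edgeR adjusted p = 0.0165), but the call was lost without wt striatum pool 1 or 3 or R6/1 striatum pool 1 (adjusted p up to 0.104). At an unadjusted p under 0.05, 3 chains were higher and 7 lower, and DESeq2 called 0 higher and 2 lower, with no share of all genes given for either rule. Same-numbered striatum pools deviated together (correlations 0.274, 0.329 and 0.257), but so did R6/1 pool 3 and wt pool 1 (0.240). With the replicate number as a block 3 chains were lower and 2 higher, where 7.11% of all genes fell and 2.83% rose. The block left Col6a4 lower (log2 fold change -1.54, adjusted p = 0.000433) and added Col6a1 and Col20a1 as lower and Col3a1 and Col9a2 as higher.

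The levels of these 4 chains show how far the genotypes were apart. Col6a1 had 68.6, 55.2 and 81.9 CPM in the R6/1 striata, against 105, 86.3 and 93.8 CPM in the wt striata (log2 fold change with the block -0.48, edgeR adjusted p = 0.0145). Col20a1 had 0.620, 0.774 and 1.32 CPM in the R6/1 striata, against 1.91, 1.88 and 2.09 CPM in the wt striata (log2 fold change with the block -1.14, edgeR adjusted p = 0.0398). Neither overlapped between the genotypes. Col3a1 had 2.29, 2.54 and 3.35 CPM in the R6/1 striata, against 1.31, 1.58 and 1.17 CPM in the wt striata (log2 fold change with the block 0.99, edgeR adjusted p = 0.0378). Col9a2 had 5.46, 7.44 and 6.38 CPM in the R6/1 striata, against 3.65, 5.75 and 3.25 CPM in the wt striata (log2 fold change with the block 0.62, edgeR adjusted p = 0.0428). Col3a1 was separate between the genotypes, while wt striatum pool 2 reached into the R6/1 range for Col9a2. Over all 44 chains, 5 (11.4%) were separate and lower in R6/1 striatum, against 12.7% of all genes. Another 4 (9.09%) were separate and higher, against 12.8% of all genes, so separation was no more frequent than among all genes. Without wt striatum pool 2 alone, 4 chains passed as higher (Col2a1, Col3a1, Col9a2 and Col9a3) and 4 as lower (Col5a1, Col6a4, Col19a1 and Col24a1), 9.09% of the 44 in each direction, where 4.32% of all genes were higher and 7.25% lower in that fit. Fibroblast markers summed to 10.4 to 14.3 CPM in R6/1 striatum and 10.4 to 12.7 CPM in wt striatum. Summed over the 44 chains, R6/1 striata had 394.3, 460.4 and 446.3 CPM and wt striata 447.1, 468.4 and 481.4 CPM. The log2 fold change had a median of -0.01 over the chains and of 0.01 over all genes tested, and the chains not named here lay between 0 and 86.8 CPM in R6/1 striatum and between 0.204 and 69.8 CPM in wt striatum.

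Whether the genotype effect differed between retina and striatum was tested as an interaction over all 12 libraries. For 5 of 44 chains the retina effect was the lower one and for 0 the higher, beside 4.07% and 2.79% of all 17579 genes. At an unadjusted p under 0.05, 11 chains were lower and 1 higher, and DESeq2 called 7 lower and 0 higher, the same 5 with Col2a1 and Col20a1. The shares above are of edgeR's adjusted p, and those of all genes under these other rules are not given here. With the pool as a block the test passed for 4 chains, without Col11a2. Col4a3 differed by -3.52 (SE 0.52, edgeR adjusted p = 0.00257) and Col4a4 by -2.28 (SE 0.36, edgeR adjusted p = 0.00215) on the log2 scale. In the striatum, Col4a3 was low in both genotypes, at 0.868, 1.51 and 0.990 CPM in the R6/1 pools and 0.837, 0.713 and 0.860 CPM in the wt pools. Its R6/1 striatum pools all lay above the wt pools, by a narrow gap, and the striatum value did not pass (log2 fold change 0.50, edgeR adjusted p = 0.454). Col4a4 was as low there, at 1.18, 1.38 and 1.26 CPM in the R6/1 pools and 0.717, 1.27 and 0.860 CPM in the wt pools.

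Col27a1, Col11a1 and Col11a2 were well expressed in the striatum. Col27a1 had 9.17, 9.94 and 8.47 CPM in the R6/1 striata, against 7.05, 7.89 and 6.88 CPM in the wt striata, and the tissues differed by -1.92 (SE 0.17, edgeR adjusted p = 4.63e-05). Its R6/1 striatum pools all lay above the wt pools, opposite to the retina, although the striatum value itself did not pass (adjusted p = 0.185). Col11a1 had 28.7, 32.6 and 34.9 CPM in the R6/1 striata and 26.9, 30.9 and 30.7 CPM in the wt striata, which overlap, and differed between tissues by -0.75 (SE 0.14, edgeR adjusted p = 0.00601). Col11a2 had 25.6, 23.8 and 22.4 CPM in the R6/1 striata and 25.6, 28.2 and 26.0 CPM in the wt striata and differed between tissues by -0.63 (SE 0.16, edgeR adjusted p = 0.0329). The call for Col11a2 was lost in 9 of the 12 fits that left out 1 pool, all but those without wt retina pool 2, R6/1 retina pool 2 or wt striatum pool 2 (adjusted p up to 0.101), and it was also lost with the pool as a block (adjusted p = 0.0728) and with library totals (adjusted p = 0.0571). The other 11 chains that fell in the retina did not pass this test, so a different genotype effect in the striatum was not shown for them, among them Col20a1 (-1.03, adjusted p = 0.0527) and Col12a1 (-0.97, adjusted p = 0.108). Of these 11, 5 passed under some alternative. Col2a1 passed by DESeq2 (-1.05, adjusted p = 0.0115), by limma-voom (-1.20, adjusted p = 0.047) and without wt striatum pool 2, and Col20a1 by DESeq2 (-1.02, adjusted p = 0.031), with edgeR's filterByExpr filter (-1.03, adjusted p = 0.0459) and without R6/1 striatum pool 1. Col17a1 passed as lower without R6/1 striatum pool 2, Col19a1 as lower without wt striatum pool 3, and Col6a4 as higher without wt striatum pool 2 or R6/1 striatum pool 3.

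Between the tissues of wt mice, 17 of the 44 chains were higher in retina (38.6%) and 17 lower (38.6%), beside 37.8% and 38.5% of all 16864 genes tested. These shares were close to those of all genes in both directions. Among the chains higher in retina, Col4a3 had a log2 difference of 6.72 (SE 0.14), Col9a1 of 6.61 (SE 0.16), Col4a4 of 4.92 (SE 0.26) and Col2a1 of 4.31 (SE 0.28). Col20a1 (3.42), Col23a1 (3.24), Col7a1 (3.08), Col8a1 (2.69), Col22a1 (2.25), Col4a5 (1.97), Col18a1 (1.89), Col8a2 (1.79), Col27a1 (1.68), Col17a1 (1.45), Col6a6 (1.44), Col4a6 (0.86) and Col9a2 (0.73) were also higher in wt retina. All 17 were higher in each wt retina pool than in any wt striatum pool, as were 39.4% of all genes.

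The 17 chains lower in wt retina were led by FACIT and type VI chains, and all of them but Col9a3 were separate between the wt tissues, as were 39.7% of all genes in that direction. Col14a1 had a log2 difference of -3.12 (SE 0.41), Col6a3 of -2.93 (SE 0.49), Col16a1 of -2.61 (SE 0.24) and Col6a5 of -2.14 (SE 0.38). Of the 6 type VI chains 5 were lower in wt retina, with Col6a2 (-1.25), Col6a1 (-0.95) and Col6a4 (-0.73) beside the 2 named, and Col6a6 was the exception. Col25a1 (-1.87), Col28a1 (-1.78), Col5a2 (-1.46), Col1a2 (-1.44), Col15a1 (-1.26), Col24a1 (-1.21), Col11a2 (-0.98), Col11a1 (-0.87), Col4a2 (-0.75) and Col9a3 (-0.56) were the others, of which Col9a3 lost its call without wt retina pool 1, wt retina pool 3 or wt striatum pool 2 (adjusted p up to 0.141), and with library totals (edgeR adjusted p = 0.0627). Markers of pericytes and smooth muscle were lower in wt retina for 7 of 7 genes (summed to 144.9 to 168.7 CPM in wt retina and 246.8 to 265.1 CPM in wt striatum). Those of endothelial cells were lower for 6 of 7. Their sum was still higher in wt retina (295.2 to 341.7 CPM, against 220.7 to 233.4 CPM in wt striatum) through Kdr, the gene higher in retina. Kdr averaged 183.2 CPM in wt retina and 20.9 CPM in wt striatum. The part of both lists in the tissue difference was not tested.

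Per kilobase of the longest coding transcript, the order of levels differed by tissue. Col6a1 led in wt retina at 12.03 CPM per kb, close to Col23a1 at 11.3, Col9a1 at 10.8 and Col4a3 at 9.98. In R6/1 retina Col9a1 led at 11.03 CPM per kb, followed by Col6a1 at 9.16 and Col23a1 at 8.86, and Col4a3 was at position 18 of 44. Col6a1 led in both striata, at 16.7 CPM per kb in R6/1 and 23.1 in wt, followed by Col25a1 at 10.4 in R6/1 and 9.93 in wt.

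The chains called between the tissues were partly different in R6/1 mice. Whether the tissue difference itself changed with genotype is what the interaction tested. Between R6/1 retina and R6/1 striatum, 14 chains were higher in retina (31.8%) and 19 lower (43.2%), beside 36.3% and 36.9% of all genes. Col4a3 remained higher in retina at a log2 difference of 3.23 (SE 0.33), against 6.72 in wt. Col27a1 no longer passed, with a log2 difference of -0.22 in R6/1 (edgeR adjusted p = 0.179) against 1.68 in wt. Col12a1 passed as lower in R6/1 retina than R6/1 striatum (-0.53, edgeR adjusted p = 0.0309). Col6a4, Col6a6, Col9a2 and Col17a1 also lost their call, and Col1a1, Col5a1 and Col13a1 gained one. Of the chains whose call changed, only Col27a1 passed the interaction test. Retina and striatum were taken from the same mice in both genotypes, and same-numbered R6/1 pools deviated together. With the replicate number as a block 14 chains were higher and 18 lower, beside 37.1% of all genes in each direction. The block ended the call for Col28a1 (-0.99, edgeR adjusted p = 0.0598, against 0.0327 without it). Of the 16 chains that fell in R6/1 retina, 9 had the higher level in wt retina when set against wt striatum, 4 the lower (Col6a1, Col6a4, Col11a1 and Col11a2) and 3 did not pass there (Col5a1, Col12a1 and Col19a1). Both comparisons use the wt retina libraries, so no test was made of this count. The same split for all genes that fell is not given here, so this split is not shown to be a trait of collagen chains. The 7 rod and 6 cone markers also fell in R6/1 retina and were higher in wt retina than wt striatum.

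**Figure D5:**
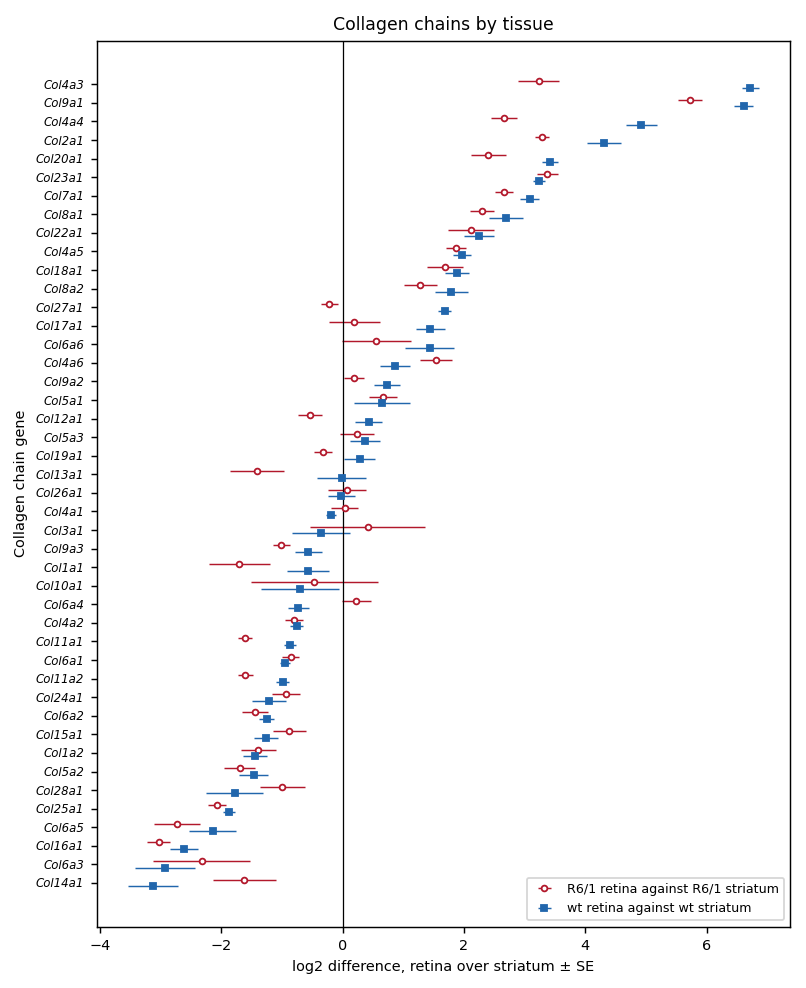
Log2 difference of retina over striatum with its standard error (x axis) for the 44 chains (rows), in R6/1 mice (open red circles) and wt mice (blue squares). The wt values run from 6.72 for Col4a3 to -3.12 for Col14a1, and the circle of Col27a1 lies on the other side of 0 (-0.22) from its square (1.68).

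The promoters of the chains were searched for 4 short strings on both strands, none of which contains another. Of the 44 chains, 35 had a RefSeq window of 300 bases, 12 of the 16 that fell in R6/1 retina and 23 others. TAATCC, the core bound by the photoreceptor factors Crx and Otx2, was in 0 of 35 and in 7.06% of all windows. GGGCGG, the GC box of Sp1, was in 7 of the 12 and 15 of the 23, and in 35.7% of all windows. CCAAT was in 4 and 9, and in 37.4% of all windows, and TATAAA was in 2 and 3, and in 13.6%. A chain counted if any of its windows matched (38 windows for the 35 chains), while the percentages are of single windows. Base composition was not matched either, so a difference from these percentages is not shown to be particular to the chains. A match is a string of letters in this window and not a measured site. The windows of the 2 chains with the smallest p in the retina are given for their sequence, Col27a1 (chr4:63215162-63215461, plus strand) and Col20a1 (chr2:180986285-180986584, plus strand), with the 50 bases from the RefSeq start site in capitals.
Col27a1: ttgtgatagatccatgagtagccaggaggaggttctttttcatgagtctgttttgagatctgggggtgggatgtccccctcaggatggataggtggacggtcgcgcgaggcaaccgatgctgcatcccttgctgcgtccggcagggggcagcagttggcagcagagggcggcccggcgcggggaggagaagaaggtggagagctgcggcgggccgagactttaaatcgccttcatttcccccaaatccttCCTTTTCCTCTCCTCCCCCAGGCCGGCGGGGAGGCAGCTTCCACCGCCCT
Col20a1: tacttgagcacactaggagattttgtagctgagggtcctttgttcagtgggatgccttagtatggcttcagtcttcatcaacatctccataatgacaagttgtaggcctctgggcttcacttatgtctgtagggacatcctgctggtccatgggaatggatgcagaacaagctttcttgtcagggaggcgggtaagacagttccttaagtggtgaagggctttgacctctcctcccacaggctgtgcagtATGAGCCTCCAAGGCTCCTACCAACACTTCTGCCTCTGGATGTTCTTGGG
The Col27a1 window held 18 CpG dinucleotides at a GC content of 61.7%, and the Col20a1 window held 1. The GENCODE start of Col27a1, 63214004, lies before the RefSeq window. In the Col20a1 window the start site falls on the letters ATG, and whether transcription begins there was not tested.

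Of the genes that make, process, bind and degrade collagen, about as large a share passed in the retina as of all genes. Of the 78 tested in 6 lists, 8 fell and 8 rose by edgeR (10.3% in each direction), beside 12.7% of all genes that fell and 9.58% that rose. DESeq2 called 10 of these 16, all but Ddr2, Fkbp10, Lama1, Lama3, P3h3 and P4ha2, and 8 kept the call in each of the 6 fits without 1 pool. The other 8 were those 6 and Mmp15, each lost in 3 or 4 of these fits, and Loxl4, lost without wt retina pool 2 (edgeR adjusted p = 0.0559). Among 20 enzymes and chaperones of the endoplasmic reticulum, 2 fell and 3 rose. Sparc, a collagen-binding glycoprotein, rose (156 ± 17.3 CPM in R6/1 retina and 116.7 ± 3.83 CPM in wt retina, SD, n = 3 each, log2 fold change 0.45, edgeR adjusted p = 0.00026). Colgalt1, which adds galactose to hydroxylysine, fell (log2 fold change -0.31, edgeR adjusted p = 0.00678), as did the prolyl 4-hydroxylase subunit P4ha2 (-0.38, edgeR adjusted p = 0.0202), while the prolyl 3-hydroxylase family member P3h3 rose (0.31, edgeR adjusted p = 0.0308).

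Of 12 genes of processing and cross-linking, 1 fell and 2 rose. Pcolce, which enhances removal of the C-propeptide, had 8.07 ± 1.89 CPM in R6/1 retina and 3.60 ± 0.84 CPM in wt retina (SD, n = 3 each, log2 fold change 1.19, SE 0.20, edgeR adjusted p = 0.000448). Loxl4, a lysyl oxidase, had 1.77 ± 0.17 CPM in R6/1 retina and 0.578 ± 0.440 CPM in wt retina (SD, n = 3 each, log2 fold change 1.66, SE 0.42, edgeR adjusted p = 0.0103), and Tll1, a procollagen C-proteinase, fell (-0.79, edgeR adjusted p = 0.00122). Of 11 collagen receptors 0 fell and 2 rose, Ddr2 (0.53, edgeR adjusted p = 0.0316) and Adgrg6 (0.86, edgeR adjusted p = 0.00657), with 2 lower at an unadjusted p under 0.05, while DESeq2 called 0 lower and only Adgrg6 higher (Ddr2 at adjusted p = 0.0846). Mmp9, a gelatinase that cleaves type IV collagen, had 3.19 ± 1.19 CPM in R6/1 retina and 8.33 ± 1.01 CPM in wt retina (SD, n = 3 each, log2 fold change -1.36, SE 0.24, edgeR adjusted p = 0.00131). In its list of 11 genes of degradation the membrane-bound Mmp15 also fell (-0.67, edgeR adjusted p = 0.017), and Timp2, an inhibitor, rose (0.29, edgeR adjusted p = 0.00922).

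Type IV networks are linked to laminins through nidogen and perlecan, and of these 15 partners 2 fell, Lama1 (-0.48, edgeR adjusted p = 0.0171) and Lama3 (-0.60, edgeR adjusted p = 0.0399). None rose by edgeR, 1 was higher at an unadjusted p under 0.05, and DESeq2 called 0 in either direction. Of 9 fibril-associated matrix genes, Fn1, fibronectin, fell to 23.9 ± 1.33 CPM in R6/1 retina, against 40.8 ± 3.97 CPM in wt retina (SD, n = 3 each, log2 fold change -0.74, SE 0.08, edgeR adjusted p = 4.51e-06), and the other 8 did not pass. In the striatum 0 of 78 pathway genes passed by edgeR, beside 1.32% of all genes that fell and 0.132% that rose. At an unadjusted p under 0.05, 12 were lower and 6 higher, and DESeq2 called 2 lower. With the replicate block 7 passed, beside 7.11% of all genes that fell and 2.83% that rose. For 2 of 80 the genotype effect differed between the tissues, beside 4.07% of all genes lower in the retina and 2.79% higher. It was lower in the retina for Fn1 (-0.72, edgeR adjusted p = 0.0058) and higher for Ppib, a proline isomerase of the endoplasmic reticulum (0.38, edgeR adjusted p = 0.0227).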

How the data were processed

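The authors prepared stranded mRNA libraries, and per the submitters' processing notes used CASAVA, Trimmomatic and Salmon with GRCm38/mm10 (no versions given). The deposited values are estimated counts from Salmon given by gene, as whole numbers without normalization, and how transcripts were summed is not stated. Genes were named from GENCODE M21 (17530 of 17579). Groups came from the sample titles.

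The members and gene lists were chosen with earlier results of these data known. Genes with at least 10 counts over the libraries fitted were tested with edgeR 4.0.16 in R 4.3.3 (robust quasi-likelihood test, TMM factors, Benjamini-Hochberg adjustment over all genes tested, threshold 0.05), within each tissue, between wt tissues and for the interaction. SE is the absolute log2 fold change over the square root of F. Levels are CPM with TMM factors over all 12 libraries. Shares of all genes at an unadjusted p or by DESeq2 are not given, so counts under these rules are not set against all genes. Every chain past the threshold in any comparison is named, with each pool where genotype or the interaction passed, and of each pathway list at most 4 passing genes with the smallest p per tissue. Results were also computed with DESeq2 1.42.0, with limma-voom from limma 3.58.1, with other scalings, filters and spreads, with a replicate block, over 12 libraries at once, without single pools, and at an adjusted p under 0.01. Pairing by replicate number was checked over 10445 genes by correlating deviations from group means. Same-numbered R6/1 and wt striatum pools gave 0.274, 0.329 and 0.257, all over 0.1. Different-numbered striatum pairs gave -0.389 to 0.240, the highest for R6/1 pool 3 with wt pool 1. Same-numbered R6/1 striatum and R6/1 retina pools gave 0.242, 0.119 and 0.179, and different-numbered pairs -0.1825 to 0.020. Both tissues came from the same mice in both genotypes, though no source says that the numbers match. Blocked values are therefore given only as an alternative. Same-numbered R6/1 and wt retina pools gave 0.124, -0.094 and 0.051, with different-numbered pairs up to 0.232 (R6/1 pool 2 with wt pool 3). Same-numbered wt striatum and wt retina pools gave -0.026, 0.019 and 0.00076. The block of the R6/1 tissues was added after seeing the data. The script was tested on simulated data. Summaries used Python 3.11.15, pandas 2.3.3 and matplotlib 3.10.9. Chain overlaps on the opposite strand with a counted gene exist for 5 chains, none of the 16 that fell in R6/1 retina.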

Additional observations from a re-analysis of the deposited data

Results flagged for a closer look

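The genotype effect of 5 chains differed between the tissues by the interaction test, as the retina effect minus the striatum effect on the log2 scale. It was -3.52 for Col4a3, -2.28 for Col4a4, -1.92 for Col27a1, -0.75 for Col11a1 and -0.63 for Col11a2. Col4a3 and Col27a1 had pools that were separate in both tissues in opposite directions, lower in every R6/1 retina pool and higher in every R6/1 striatum pool. Of all genes, 23.0% were separate and lower in R6/1 retina and 12.8% separate and higher in R6/1 striatum. The share of all genes with both is not given here, so the pattern is not shown to be more frequent among the chains. Col4a3 had few counts in the striatum, 14, 35 and 18 in the R6/1 pools and 14, 14 and 14 in the wt pools. R6/1 striatum pool 1 thus lay above the wt pools only after scaling. Neither striatum effect passed alone (log2 fold change 0.50, edgeR adjusted p = 0.454 for Col4a3, and 0.34, edgeR adjusted p = 0.185 for Col27a1).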

How the results depend on the processing

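The number of chains past the threshold stayed within 1.5 times of 16 in the retina and of 34 between wt tissues under every alternative run, and leaving out 1 pool gave 15 to 17 and 34 to 37. Other fits cost the retina more calls. The single fit of 12 libraries ended those of Col2a1, Col5a1, Col6a4, Col22a1 and Col23a1. DESeq2 with the block ended those of Col2a1, Col5a1, Col6a4, Col17a1 and Col22a1. Scaling by library totals put the median of all genes at 0.13 (log2, retina) and 0.12 (log2, striatum), and gave 15 lower chains and 1 higher, Col8a1, in the retina. In the striatum the 1 called chain became 2 with DESeq2, 5 with the replicate block, 2 with DESeq2 and the block, 3 in a single fit of 12 libraries, 0 at an adjusted p under 0.01 and 0 to 8 when 1 pool was left out, with 8 reached without wt striatum replicate 2. Leaving out both striatum replicates 2, chosen after seeing the data, gave 10. Between-tissue differences in the genotype effect numbered 4 to 8 over the pools left out, again highest without wt striatum replicate 2.

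The 16 pathway genes of the retina became 10 with DESeq2, 6 with DESeq2 and the block, 8 at an adjusted p under 0.01 and 10 to 15 when 1 pool was left out, with 10 reached without wt retina replicate 1 or 3. In the striatum 0 became 2 with DESeq2, 7 with the replicate block, 3 with DESeq2 and the block, 2 in a single fit, 0 to 7 over the pools left out (7 without wt striatum replicate 2) and 11 without both replicates 2. For the interaction 2 became 7 with DESeq2, 4 with filterByExpr, 1 at an adjusted p under 0.01 and 1 (without any 1 wt retina replicate) to 7 (without wt striatum replicate 2) over the pools left out. All settings of the pathway counts were added after seeing the data.

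Calls of single chains that a setting ended stand beside those chains above, and DESeq2 with the block also ended those of Col4a6 (adjusted p = 0.0856) and Col6a6 (adjusted p = 0.0551) between wt tissues.

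Signs of chains that had not passed turned with library totals (6 of 44 in the retina, 3 in the striatum, 2 between wt tissues), limma-voom (3 in the striatum, 2 for the interaction), DESeq2 (1 in the striatum), the replicate block (1 in the striatum, 1 for the interaction) and DESeq2 with the block (2 and 2). Leaving out pools turned 14 in the retina, 10 in the striatum, 13 for the interaction and 2 between wt tissues. No chain that had passed turned sign in any of these fits. In the retina, leaving out 1 pool gave Col4a1 -0.019 (without R6/1 retina replicate 3) to 0.39, Col4a2 -0.20 to 0.084 (without R6/1 retina replicate 1) and Col4a5 -0.21 to 0.031 (again without R6/1 retina replicate 1), and library totals gave 0.072 for Col4a2, 0.018 for Col4a5, 0.019 for Col25a1, 0.050 for Col8a2, 0.063 for Col15a1 and 0.069 for Col16a1. R6/1 in place of wt libraries turned 7 tissue differences, 2 of them of chains that passed in wt (Col6a4 and Col27a1): Col3a1 (0.41, or -0.098 with the replicate block), Col26a1 (0.074), Col4a1 (0.036), Col6a4 (0.23), Col12a1 (-0.53), Col19a1 (-0.32) and Col27a1 (-0.22). That of Col13a1 was 0.019 with library totals and -0.37 to 0.20 over the pools left out. With the replicate block the retina gave 15 chains (Col6a4 lost), the interaction 4 (Col11a2 lost) and the wt tissues 34. For these shifts the cause was not tested.

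Chains under 1 CPM, 6 in wt retina and 7 in wt striatum, have few counts, and a change that did not pass there is not shown to be absent. Each group holds 3 pools of mice, and retinal RNA was compared relative to library composition, which differs between R6/1 and wt retina.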
